A study of Drosophila melanogaster with 150 samples.

Results

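The nuclear genes that encode subunits of the mitochondrial respiratory chain were measured in whole adult males of Drosophila melanogaster. A gene was a member if its platform symbol began with ND-, UQCR-, COX followed by a digit of a nuclear-encoded subunit, or ATPsyn, or was SdhA, SdhB, SdhC or SdhD, and if the probe set carried no other symbol. The rule found 69 genes among 11981 symbols on the arrays. A gene with several probe sets stands for the one of highest mean, and 63 of the 69 had only 1. Members were assigned to complexes by symbol alone. Complex I had 32 members, complex II had 3, complex III had 6, complex IV had 14 and complex V had 14. SdhA had no probe set with its symbol alone and was not analysed here, so complex II stands for SdhB, SdhC and SdhD. Of the 69 genes, 18 are paralogs whose symbol is that of another subunit followed by L, L1 or L2 (5 in complex I, 2 in complex III, 7 in complex IV and 4 in complex V), and the remaining 51 are called the standard subunits below.

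The study reared each of 75 recombinant inbred roo lines on both foods and hybridised 1 array per line and food, 150 arrays in all. In the 75 arrays labelled lead the flies came from standard food with 250 uM lead acetate, and in the 75 arrays labelled control from standard food with 250 uM sodium acetate. At 25 degrees C, 20 males and 20 females of a line were kept for 3 days on 10 ml of food per vial. Their sons were collected at an age of 5 to 10 days, 65 to a pool, and 50 mg of flies were homogenised. An array is therefore, as described, a pool of whole males from a vial, and p-values measure the spread between such pools. The mean of 16 female eggshell and yolk genes had a median of 3.68 over the 150 arrays but was highest at 9.17. The source of that signal was not tested.

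The arrays were also split by MtnB, a metallothionein gene whose small cysteine-rich product binds metals. MtnB had a signal above 10 on the log2 scale on 76 arrays (lowest 11.02, median 12.94, highest 13.53) and below 10 on 74 arrays (lowest 4.40, median 6.43, highest 8.99). No array lay between 8.99 and 11.02. The split did not follow the labels. The arrays above 10 comprised 40 labelled lead and 36 labelled control, and those below 10 comprised 35 labelled lead and 39 labelled control. Both arrays were above 10 in 23 lines and below 10 in 22 lines, while 17 lines were above 10 on the array labelled lead alone and 13 on the array labelled control alone. These classes are set by a measured level. They are not groups of the study and are not read here as a treatment.

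The respiratory chain sits in the inner mitochondrial membrane. Complex I takes electrons from NADH and complex II takes them from succinate, complex III passes them by way of cytochrome c to complex IV, which reduces oxygen, and complex V uses the resulting proton gradient to make ATP. Flight muscle is packed with mitochondria and is a large part of a fly's thorax. In Drosophila many nuclear genes for mitochondrial proteins have a duplicate that is expressed mainly in testis, where mitochondria fuse and elongate along the sperm tail.

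The standard subunits gave high signals. Their mean log2 signal over 150 arrays ran from 4.57 to 12.62 with a median of 10.49, and 49 of the 51 lay above the median of mean signal over all probe sets. The exceptions were UQCR-11 of complex III at 4.57 and ND-B12 of complex I at 4.82. Signals of different probe sets depend on their probes, so the members are not ranked against each other. By complex the means ran from 4.82 to 12.62 in complex I, from 10.02 to 10.65 in complex II, from 4.57 to 11.72 in complex III, from 10.88 to 12.01 in complex IV and from 10.68 to 12.44 in complex V. The SD of a standard subunit over arrays had a median of 0.325, against 0.219 over all 18769 probe sets. ATPsynbeta, the catalytic subunit of ATP synthase, had the widest SD of the 51, 0.733, with a lowest signal of 9.56 and a highest of 13.47. The 18 paralogs had mean signals between 6.06 and 10.84 with a median of 8.05.

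The standard subunits varied together from array to array. Over the 1275 pairs of standard subunits the median Pearson r was 0.859. Pairs within a complex had a median r of 0.864 (426 pairs) and pairs of different complexes had 0.854 (849 pairs), so that the co-variation ran across complexes about as much as within them. Within complex I the median r was 0.860, within complex II 0.839, within complex IV 0.923 and within complex V 0.865. Complex III had a median of 0.258 over 6 pairs, of which the 3 negative ones all involved UQCR-11. These values are descriptions over 150 arrays, which share their normalization and come in line pairs, and no test was applied to them.

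**Figure D1:**
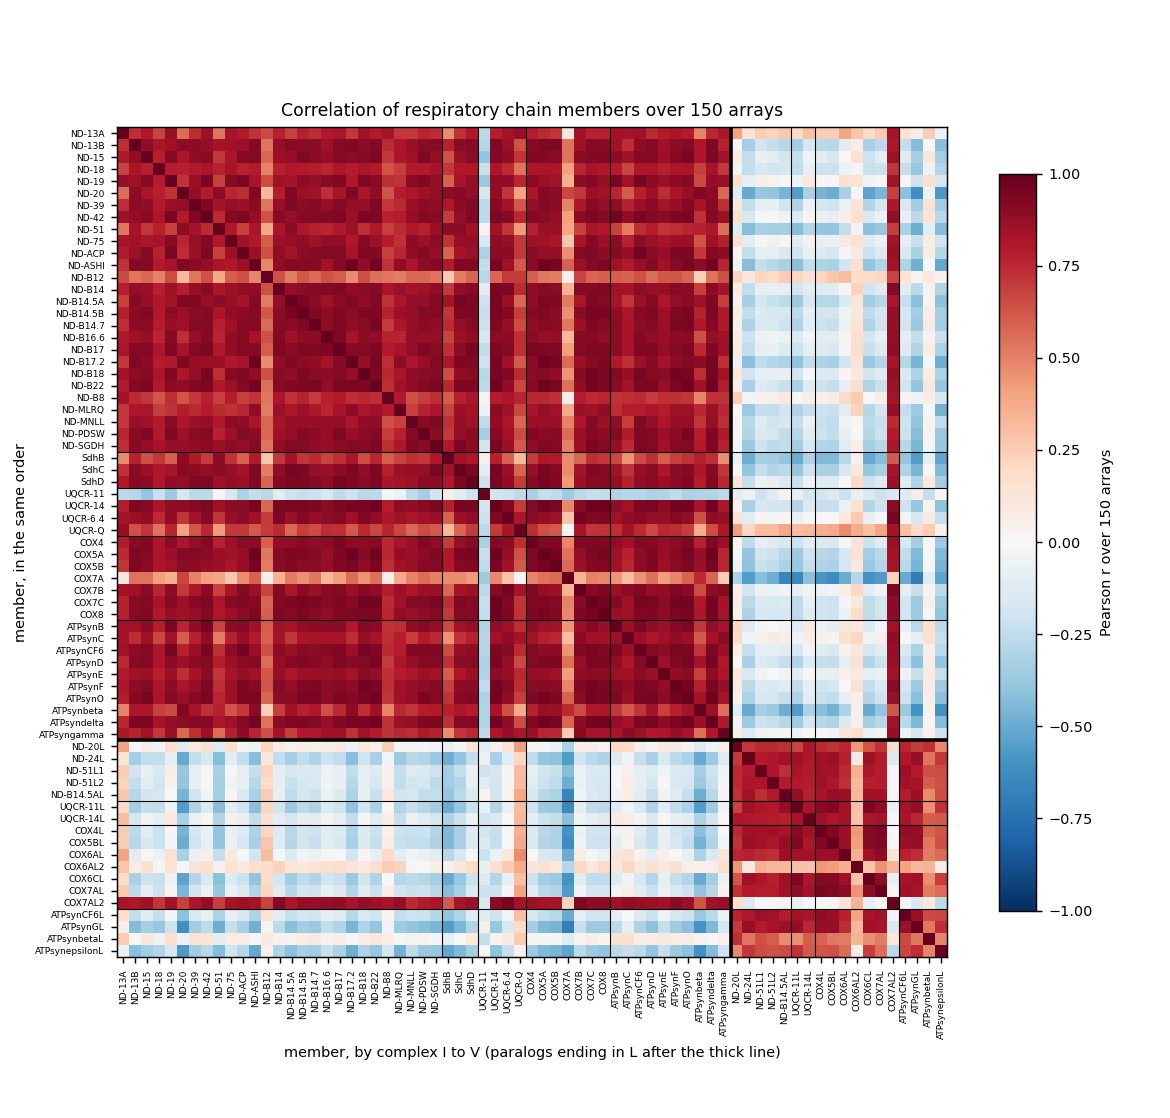
Pearson r over 150 arrays between every pair of the 69 members, ordered by complex I to V on both axes, with the 18 paralogs after the thick line and the colour scale running from -1 to 1. The 51 standard subunits form a block with a median r of 0.859, the paralogs form another with a median of 0.752, and the pairs across the thick line have a median of -0.136, apart from the dark band of COX7AL2.

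Each subunit was also set against the mean of the other standard subunits. The median r was 0.940, and 37 of the 51 exceeded 0.9, against 0.341% of all probe sets, a share that includes these members. UQCR-14, a small nuclear-encoded subunit of complex III, had the highest value, 0.985 (Spearman rho 0.979, and r 0.983 without the 2 arrays farthest from the median). COX7C led complex IV at 0.976. ND-B22 led complex I at 0.974, ATPsynO of the peripheral stalk led complex V at 0.973, and SdhD, a membrane anchor of succinate dehydrogenase, led complex II at 0.959. Against the mean of all other members, paralogs included, the highest values were those of ND-42 (0.953), UQCR-6.4 (0.944), ND-B17 (0.940), UQCR-14 (0.939) and SdhD (0.938).

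A few standard subunits followed the rest loosely or not at all. UQCR-11 had an r of -0.254 with the mean of the others, at the low signal given above. COX7A, a small subunit of cytochrome c oxidase, had a high signal (lowest 10.73, median 11.40, highest 11.72) and an r of 0.484. ND-B12 had 0.589, UQCR-Q 0.711, SdhB, the iron-sulphur subunit of succinate dehydrogenase, 0.773, and ND-B8 0.784. SdhC had 0.949.

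The level shared by the standard subunits moved with muscle genes. The mean of the 51 on an array was lowest at 9.74, had a median of 10.24 and was highest at 11.31, a 2.96-fold span. It had an r of 0.820 with the mean of 22 muscle genes (rho 0.843, and 0.814 without the 2 arrays farthest from the median of the x measure). Over the 22 genes singly the median r was 0.658, and 14 exceeded 0.5. The widest SDs in the list were those of fln (2.08), TpnC4 (1.84) and Act88F (1.60), which weigh most in its mean. Of the 51, 48 had an r above 0.5 with the muscle mean, against 4.17% of all probe sets. Among the muscle genes, the flight muscle genes TpnC4 (a troponin C) and Act88F (an actin) had r values of 0.863 and 0.836 with the mean of the standard subunits, while sls, which encodes titin-like proteins, had -0.045 and Zasp66, a Z-disc gene, had -0.081. In RNA from whole flies, fewer cells of a type and less RNA per cell cannot be told apart.

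Genes of neighbouring mitochondrial functions followed the standard subunits in part. An r above 0.5 with the mean of the 51 was found for 6 of 9 genes in a citric acid cycle list, 4 of 10 mitochondrial carrier and electron carrier genes and 6 of 12 assembly and regulator genes (the member ND-ACP among them), against 6.08% of all probe sets. The means of these lists had r values of 0.956, 0.948 and 0.554 with the mean of the 51. Over single genes the median r was lower, at 0.790, 0.415 and 0.409. Mpcp1, a phosphate carrier with the widest SD of the carrier list (0.852), had an r of 0.914. In the citric acid cycle list, mAcon1 (aconitase) had an r of 0.890 and the isocitrate dehydrogenase subunit Idh3b had 0.856. Idh had 0.174. It encodes the NADP-dependent isocitrate dehydrogenase, which is not the enzyme of the cycle, but it is counted in the list. Among the carriers, RFeSP, the Rieske iron-sulphur subunit of complex III, had 0.954 and sesB, an ADP/ATP carrier, had 0.865. RFeSP and Cyt-c1 (0.877) are themselves subunits of complex III. The channel gene porin had -0.005, Bmcp -0.248 and Ant2, an ADP/ATP carrier, -0.375. The mean of 40 genes taken by symbol as cytoplasmic ribosomal proteins ran the other way, with an r of -0.510. Singly these genes had a median r of -0.260, from -0.692 to 0.130. The symbols were not checked to hold ribosomal proteins alone. The difference between the 3 prime and 5 prime control probe sets of actin, a measure of RNA degradation or of labelling length, had an r of -0.515 with the mean of the standard subunits (rho -0.492). After the muscle mean, the testis mean and that actin difference were taken out of every gene by regression, the median r of the 1275 pairs was 0.606.

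**Figure D2:**
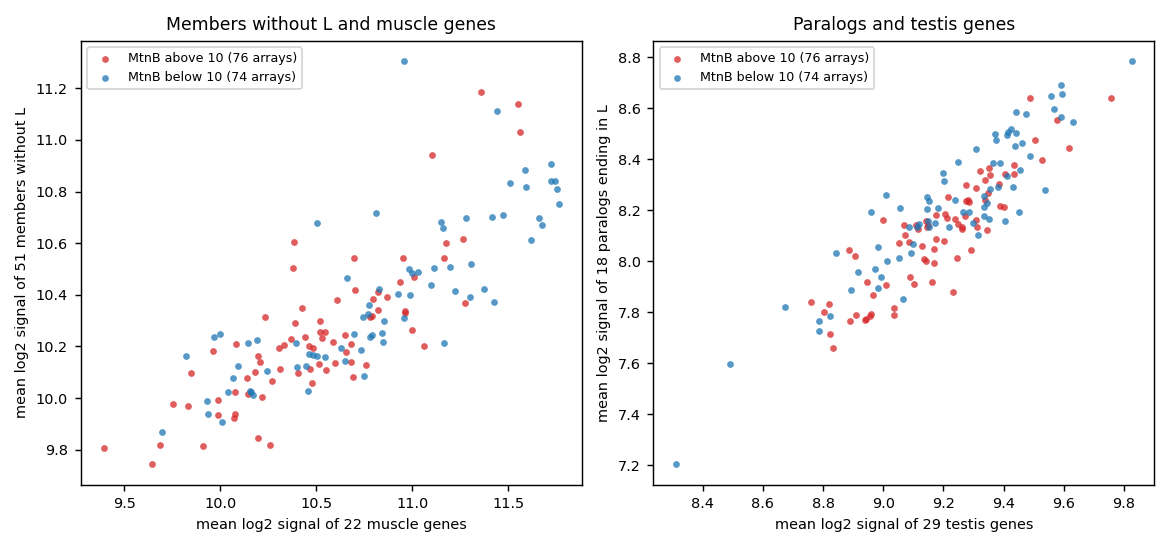
Each point is an array, in red where MtnB was above 10 (76 arrays) and in blue where it was below 10 (74 arrays). The left panel sets the mean log2 signal of the 51 standard subunits against that of 22 muscle genes (r 0.820), and the right panel sets the mean of the 18 paralogs against that of 29 testis genes (r 0.895).

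The paralogs formed a second group. Over their 153 pairs the median r was 0.752. Against the standard subunits it was -0.136 over 918 pairs, of which 656 were negative. This value moved with the setting, to -0.296 (756 negative) on arrays above 10 in MtnB, -0.077 (569 negative) after quantile normalization and -0.073 (569 negative) after median centring. With the mean of the standard subunits, 14 of the 18 had a negative r and the median was -0.193. With the mean of 29 testis genes (such as the spermatid genes dj, ocn and Mst98Ca), 16 of the 18 paralogs had an r above 0.5, against 0 of the 51 standard subunits and 12.1% of all probe sets. Of the 29 genes themselves, each a part of that mean, 24 exceeded 0.5. Among the rest, ocn had 0.393, fzo 0.133 and mia -0.114. The median r with the testis mean was 0.856 for the paralogs and -0.350 for the standard subunits. The mean of the 18 paralogs had an r of 0.895 with the testis mean over arrays (rho 0.877, and 0.879 without the 2 arrays farthest from the median). It also had 0.642 with 17 accessory gland genes, 0.445 with the actin difference and -0.594 with 22 gut enzyme genes, and the part of each in it was not tested. The testis mean itself had an r of 0.615 with the actin difference (rho 0.661).

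Among the complex IV paralogs, COX5BL had the highest r with the testis mean, 0.926, followed by COX7AL at 0.919, COX6CL at 0.913 and COX4L at 0.911. COX6AL had 0.866. In complex III, UQCR-11L had 0.914 and UQCR-14L had 0.833. In complex V, ATPsynGL had 0.909, ATPsynCF6L 0.850, ATPsynepsilonL 0.682 and ATPsynbetaL 0.513. In complex I, ND-B14.5AL had 0.873, ND-24L 0.862, ND-51L2 0.810, ND-51L1 0.803 and ND-20L 0.726. The members with the lowest r against the mean of all other members were UQCR-11 (-0.291) and the paralogs ATPsynepsilonL (-0.206), ATPsynGL (-0.139), ND-24L (-0.072) and UQCR-11L (-0.036).

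COX7AL2 and COX6AL2 stood outside this group. COX7AL2 had an r of -0.155 with the testis mean, 0.901 with the mean of the standard subunits and 0.920 with the muscle mean. Its signal was lowest at 8.92, had a median of 10.77 and was highest at 12.45. COX6AL2 had an r of 0.364 with the testis mean and 0.135 with the standard subunits, and its signal was lowest at 6.11, had a median of 7.56 and was highest at 8.97. Without this pair of genes the remaining paralogs had a median r of 0.798 among themselves over 120 pairs, with a lowest value of 0.454, and of -0.165 with the standard subunits.

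A paralog could be set beside the subunit it is named after in 12 cases, and r was negative in 10 of them. Their median r was -0.146. Over all 918 pairs of a standard subunit with a paralog it was -0.136, with 656 negative, so the named pairs were close to pairs in general. The pair of UQCR-11L and UQCR-11 rests on a subunit with a mean signal of 4.57. The lowest value was that of COX7AL with COX7A, -0.566 (rho -0.591). ND-51, the NADH-binding flavoprotein subunit of complex I, had -0.329 with ND-51L2 and -0.326 with ND-51L1. COX5BL with COX5B had -0.317, ND-B14.5AL with ND-B14.5A -0.255, COX4L with COX4 -0.147, ATPsynCF6L with ATPsynCF6 -0.145, UQCR-14L with UQCR-14 -0.143, ND-20L with ND-20 -0.121 and UQCR-11L with UQCR-11 -0.075. The positive values were 0.031 for ATPsynbetaL with ATPsynbeta and 0.231 for COX7AL2 with COX7A.

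**Figure D3:**
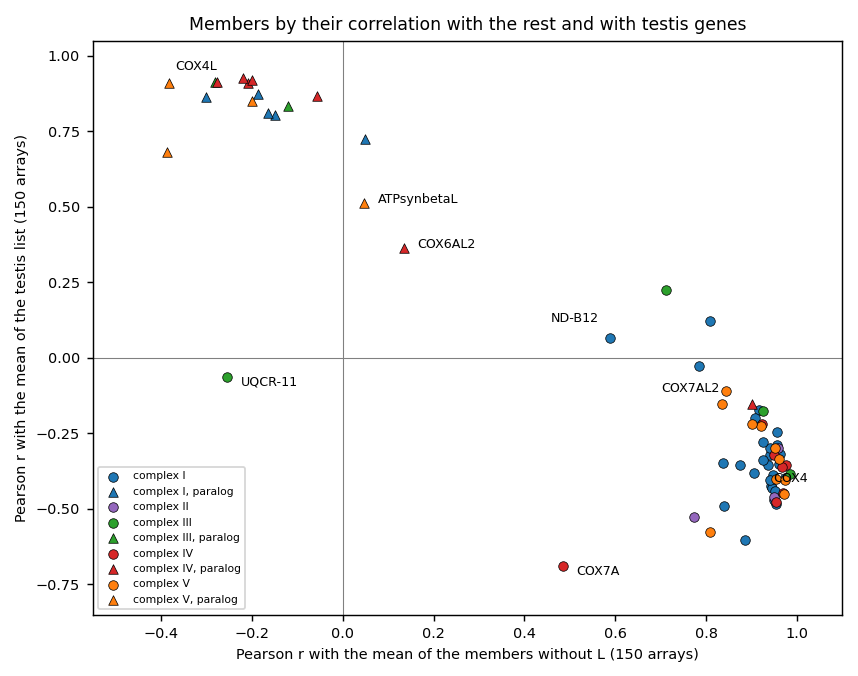
Each point is a member, placed by its Pearson r over 150 arrays with the mean of the standard subunits (x axis, itself left out) and with the mean of the testis list (y axis). Circles are standard subunits and triangles are paralogs, coloured by complex. Most paralogs sit at the upper left, between 0.513 and 0.926 on the y axis, COX7AL2 sits among the standard subunits at 0.901 on the x axis, and COX7A (0.484) and UQCR-11 (-0.254) sit apart.

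The co-variation with testis genes was shared by duplicates that the rule on symbols did not cover. The list drawn up for them was not checked to hold duplicates alone. It includes RFeSP, itself a complex III subunit, and RFeSP, Mpcp1 and Ant2 are also in the carrier list. Of 11 genes in that list, 8 had an r above 0.5 with the testis mean, against 12.1% of all probe sets. SdhBL had 0.915 and SdhAL had 0.883, both being duplicates of succinate dehydrogenase subunits. Ant2 had 0.916, Porin2 had 0.899, Fum3 (a fumarase) had 0.865 and Cyt-c1L, a duplicate of the complex III gene Cyt-c1, had 0.812. The genes of the list below 0.5 were Mdh1 (-0.638), RFeSP (-0.438) and Mpcp1 (-0.107). After the muscle, testis and actin measures were taken out by regression, the median r among the 18 paralogs was 0.210 and that between paralogs and standard subunits was 0.074.

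The next comparison asked how the members differed between the arrays above and below 10 in MtnB. The standard subunits were lower above 10. Of the 51, 34 were lower and 0 higher at a limma adjusted p under 0.05, and 48 of the 51 differences were negative. The subunits vary together, so these counts, and those by complex and by label below, are not counts of separate observations. Over all probe sets 17.0% were called lower and 11.7% higher. The median difference of the 51 was -0.16 on the log2 scale, against -0.02 over all probe sets. The mean of the 51 was lowest at 9.74, had a median of 10.21 and was highest at 11.19 on arrays above 10, and was lowest at 9.87, had a median of 10.32 and was highest at 11.31 on arrays below 10, so the classes overlapped over almost their whole range. By complex, 20 of 27 standard subunits were lower in complex I, 1 of 3 in complex II, 3 of 4 in complex III, 4 of 7 in complex IV and 6 of 10 in complex V.

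Of the 6 largest differences past the threshold, 4 were in complex I. ND-19, an accessory subunit, was lowest at 8.69, had a median of 9.17 and was highest at 10.41 on arrays above 10, against 8.84, 9.40 and 10.66 on arrays below 10. Its difference was -0.26 ± 0.057 (SE, n = 76 and 74 arrays, limma adjusted p 0.000162), 1.19 times as high below 10. ND-75, the large iron-sulphur subunit of the NADH-oxidising arm, had 8.69, 9.22 and 10.29 above 10 and 8.90, 9.45 and 10.37 below 10, a difference of -0.22 ± 0.049 (limma adjusted p 0.000113). The ranges of both genes overlapped almost fully, while the medians were lower above 10.

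ND-18, an accessory subunit near the NADH-oxidising arm, had 7.74, 9.05 and 10.18 above 10 and 8.10, 9.23 and 10.45 below 10, and differed by -0.23 ± 0.066 (limma adjusted p 0.00371). ND-B18, an accessory subunit of the membrane arm, had 8.64, 9.33 and 10.51 above 10 and 9.00, 9.54 and 10.76 below 10, and differed by -0.21 ± 0.059 (limma adjusted p 0.0029). In both genes the lowest, the median and the highest values were each lower above 10. Of the 27 standard subunits placed in complex I by their symbol, only ND-MLRQ had a positive difference, 0.00 (0.00419 ± 0.036), which did not pass the threshold. Its place in complex I rests on the symbol alone.

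In complex V, ATPsynCF6, coupling factor 6 of the peripheral stalk, had 10.00, 10.51 and 11.77 above 10 and 10.07, 10.76 and 11.96 below 10, and differed by -0.25 ± 0.059 (limma adjusted p 0.000502). The classes again overlapped over most of their range. ATPsynbeta, with the widest spread, had a difference of 0.01 ± 0.12 (adjusted p 0.946). In complex II, SdhD had 9.50, 10.04 and 11.26 above 10 and 9.73, 10.19 and 11.43 below 10, a difference of -0.15 ± 0.050 (limma adjusted p 0.0135). SdhC had -0.12 ± 0.054 (adjusted p 0.0978) and SdhB had -0.11 ± 0.065 (adjusted p 0.211), and neither passed. In complex IV, COX7C and COX5B were among the 4 lower subunits, at -0.18 ± 0.055 and -0.16 ± 0.062 (limma adjusted p 0.00546 and 0.0454), while COX7A had 0.04 ± 0.033 (adjusted p 0.388).

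Of the 18 paralogs, 8 were lower above 10 and 0 higher, with a median difference of -0.12. Over all probe sets 17.0% were lower and 11.7% higher. COX7AL2 had the largest difference of all 69 members, with 8.92, 10.64 and 12.33 above 10 and 9.40, 11.01 and 12.45 below 10, a difference of -0.32 ± 0.12 (limma adjusted p 0.0335), 1.25 times as high below 10. The others were ND-51L2 at -0.18 ± 0.044, UQCR-11L at -0.17 ± 0.054, ATPsynepsilonL at -0.15 ± 0.041, UQCR-14L at -0.14 ± 0.044, ATPsynCF6L at -0.13 ± 0.044, ND-B14.5AL at -0.13 ± 0.050 and ND-24L at -0.12 ± 0.046. Not passing were ATPsynGL, COX6CL, COX4L, COX5BL, ND-51L1, COX6AL, ATPsynbetaL, COX7AL and ND-20L, between -0.12 and -0.05, and COX6AL2 at 0.07 ± 0.11. In the 12 pairs of paralog and named subunit both differences were below 0, except where the subunit was COX7A or ATPsynbeta, whose own values were above 0.

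**Figure D4:**
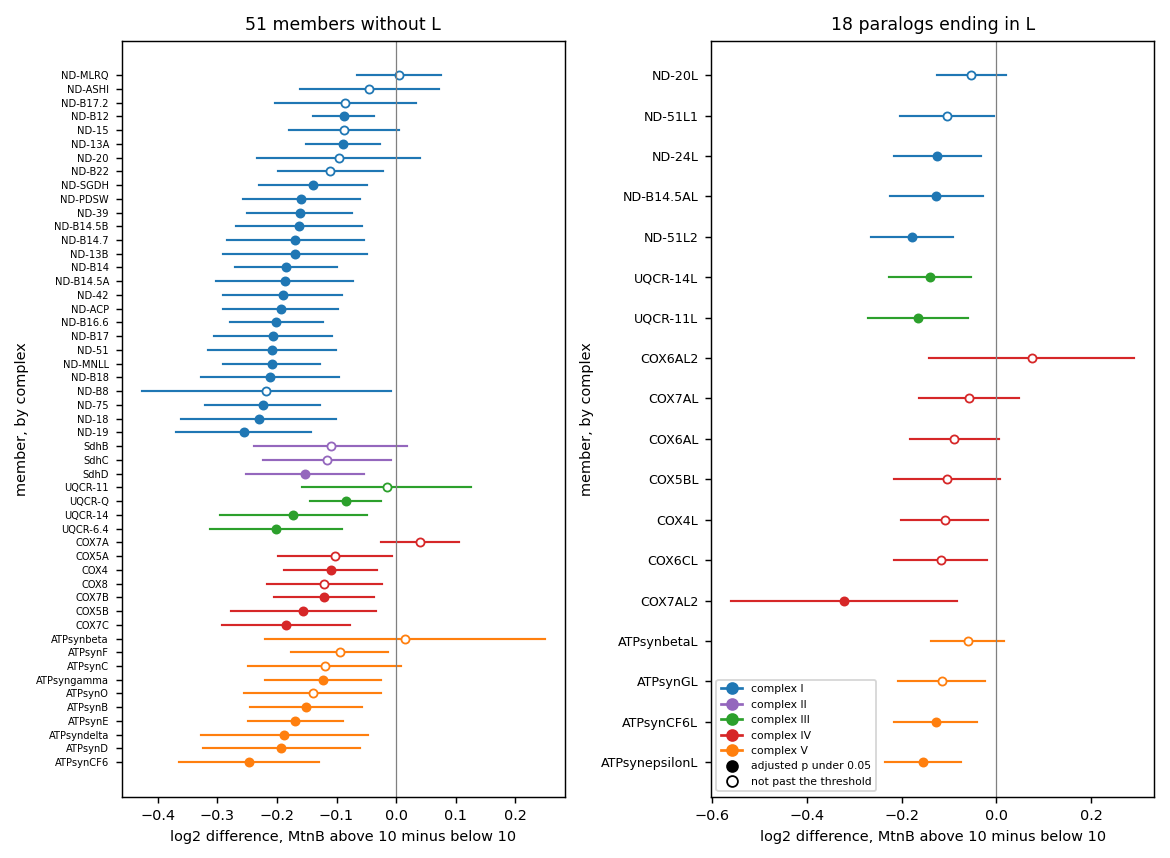
Log2 difference of each member, arrays above 10 in MtnB minus arrays below 10, with its 95% interval from limma, by complex and in order of size. Filled points passed an adjusted p of 0.05 (34 of 51 standard subunits on the left, 8 of 18 paralogs on the right), and all filled points lie below 0.

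The muscle genes moved with the same split. Of the 22, 17 were lower above 10 and 0 higher, with a median of -0.30, against 17.0% of all probe sets lower and 11.7% higher. Their mean was lowest at 9.39, had a median of 10.50 and was highest at 11.56 on arrays above 10, and was lowest at 9.69, had a median of 10.82 and was highest at 11.76 on arrays below 10. With the muscle mean as a covariate, 2 standard subunits were lower above 10 (ND-MNLL at -0.10 and ND-B16.6 at -0.07), 4 were higher (ATPsynbeta at 0.28, ND-ASHI at 0.12, ND-MLRQ at 0.11 and ATPsynC at 0.11), and the median of the 51 was 0.01. In that fit 18.6% of all probe sets were lower and 11.3% higher. Of the paralogs 7 were lower in it, from ATPsynCF6L at -0.13 to ATPsynepsilonL at -0.20, and COX7AL2 was at 0.11.

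The other lists differed in how far they moved with the split, and are set against the 17.0% of all probe sets called lower and the 11.7% called higher. Gut enzyme genes were higher above 10 in 18 of 22 cases and lower in 1, with a median of 0.80. Accessory gland genes were lower in 10 of 17 cases and testis genes lower in 6 and higher in 1 of 29, and eggshell genes were called in 0 of 16 cases. Counted in either direction, the share of testis genes called did not exceed that of all probe sets. The part of the gut and accessory gland lists in the members' differences was not tested. The actin difference between 3 prime and 5 prime probe sets was lowest at 0.62, had a median of 1.34 and was highest at 2.61 on arrays above 10, against 0.49, 1.57 and 2.90 on arrays below 10.

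Genes of the citric acid cycle list were lower in 5 of 9 cases, among them Idh3a (-0.27 ± 0.053), Ogdh (-0.25 ± 0.041), mAcon1 (-0.18 ± 0.060) and Idh3b (-0.16 ± 0.052). Idh, the NADP-dependent enzyme counted in that list, was higher (0.22 ± 0.040). Carrier genes were lower in 4 of 10 cases, namely the phosphate carrier Mpcp1 (-0.52 ± 0.13), Cyt-c1 (-0.28 ± 0.043), RFeSP (-0.15 ± 0.059) and sesB (-0.12 ± 0.045), and colt was higher (0.10 ± 0.041). Genes for assembly and regulation were lower in 6 of 12 cases, led by ND-ACP, which is also a member, at -0.19 ± 0.049, Cox10 at -0.15 ± 0.035, ewg at -0.14 ± 0.054 and Cox11 at -0.12 ± 0.031. In the list drawn up for duplicates outside the rule, which does not hold duplicates alone, 5 of 11 genes were lower. These included Fum3 at -0.18 ± 0.054, SdhAL at -0.13 ± 0.048 and, already counted as carriers, Mpcp1 and RFeSP. Mdh1 of that list was higher at 0.28 ± 0.045. Genes taken as ribosomal proteins by symbol alone, with -like symbols such as RpS28-like and RpL24-like included, were lower in 8 of 40 cases. The largest differences were RpS28-like at -0.24, RpL24-like at -0.15, RpS20 at -0.14 and RpL37-2 at -0.12. Higher were 3, namely RpLP2 at 0.08, RpLP1 at 0.06 and RpS26 at 0.06. Both shares of the ribosomal protein genes were close to or below those of all probe sets. RpS28-like and RpL37-2 had an r of 0.832 and 0.706 with the testis mean, and 6 of the 40 exceeded 0.5.

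The counts changed when line was fitted as a block and when lines were left out, and the reason was not tested. ND-75, for example, had -0.24 ± 0.075 with the block, against -0.22 ± 0.049 without it. With line as a block, which compares arrays of lines that fell in both classes, 5 standard subunits were lower above 10 (ND-39, ND-51, ND-75, ND-B16.6 and ND-MNLL, from -0.19 to -0.30), against 4.26% of all probe sets, and 0 paralogs were called, while the median of the 51 was -0.14. Without the 8 lines that hold the arrays of lowest correlation with the others, 13 standard subunits were lower, with a median of -0.09. The share of all probe sets called without those lines is not given here, so a general loss of calls cannot be told apart.

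Within the arrays labelled lead, 36 of the 51 standard subunits were lower above 10 (6.61% of all probe sets were) with a median of -0.25, and 0 of 18 paralogs were. The mean of the 51 had a median of 10.20 on the 40 arrays above 10 and 10.41 on the 35 arrays below 10. Within the arrays labelled control, 0 of 51 standard subunits were lower (14.2% of all probe sets were) with a median of -0.06, and 12 of 18 paralogs were lower, with a median of -0.18. COX7A was higher there, at 0.12 (limma adjusted p 0.0411; 10.1% of all probe sets were higher). The mean of the 51 had a median of 10.25 on the 36 arrays above 10 and 10.30 on the 39 arrays below 10. The difference between the labels was itself tested as an interaction of class and label. It was called for 0 members and 0% of all probe sets, the smallest adjusted p of a member was 0.554, and 18 of the 51 standard subunits had an unadjusted p under 0.05, as did 8.76% of all probe sets.

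**Figure D5:**
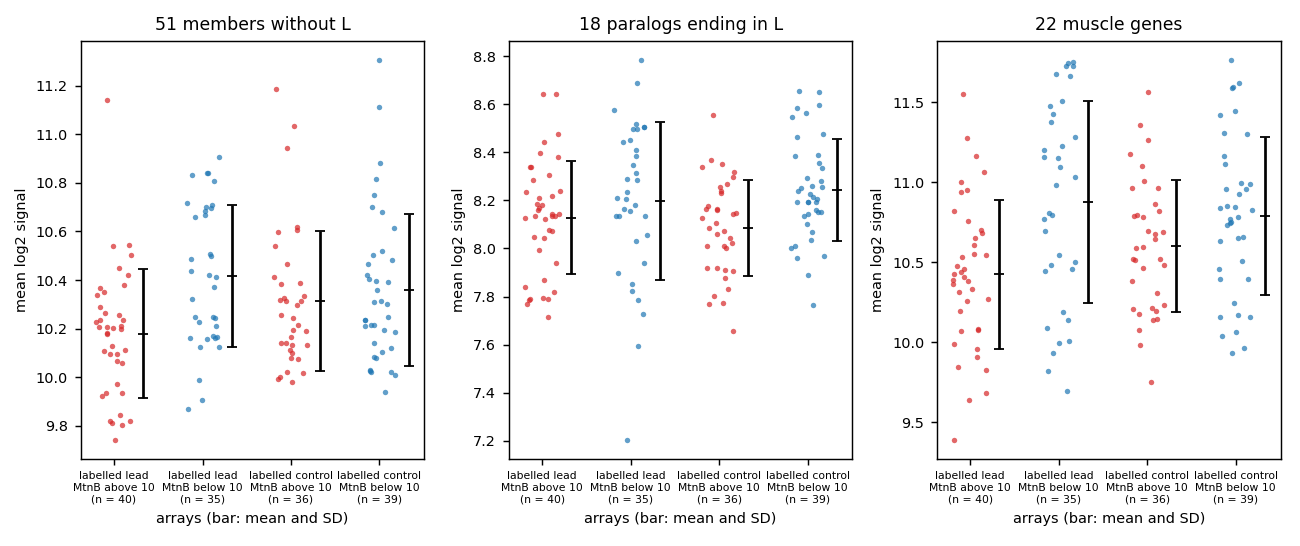
Mean log2 signal per array of the 51 standard subunits, the 18 paralogs and 22 muscle genes, in 4 sets of arrays by label and MtnB class, with the mean and SD as a bar beside the points. Among arrays labelled lead the 51 standard subunits averaged 10.18 above 10 and 10.42 below 10, among arrays labelled control 10.31 above 10 and 10.36 below 10, and the muscle genes stood in the same order of classes under both labels.

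The comparison the study was designed for, lead against control within lines, called 0 of the 69 members (limma with line as a block, adjusted p under 0.05), as it called 0% of all probe sets. The match of arrays to labels could not be checked from the files: MtnB did not follow the labelled food, and arrays of a labelled line were weakly alike, so the result holds for the labels as given. At an unadjusted p under 0.05 it named 0 members and 2.61% of all probe sets. The median difference of the 51 standard subunits was -0.05 on the log2 scale, with 50 of the 51 below 0, against 0.00 (0.00196) over all probe sets. The subunits vary together, so these 50 are not separate observations. The mean of the 51 was lower on the array labelled lead in 41 of 75 lines and differed by -0.05 ± 0.044 (SE, n = 75 lines). The median of the paralogs was -0.02.

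The smallest p belonged to ND-MNLL, a small accessory subunit of complex I. It was lowest at 9.31, had a median of 9.91 and was highest at 10.64 on arrays labelled lead, against 9.57, 9.93 and 10.79 on arrays labelled control. Its difference was -0.08 ± 0.041 with an interval from -0.16 to 0.00, lower on lead in 42 of 75 lines (limma adjusted p 1.00). SdhB differed by -0.11 ± 0.065, with an interval from -0.24 to 0.02 and 44 of 75 lines lower on lead, and ND-B12 by -0.04 ± 0.025, with 41 of 75 lines lower (both at a limma adjusted p of 1.00). Over the 69 members the 95% intervals reached from -0.30 (COX7AL2) to 0.33 (COX6AL2), so changes beyond those bounds lie outside the intervals of every member.

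The last comparison was between lines. The line effect called 0 of the 69 members (limma F-test, adjusted p under 0.05), against 0.0107% of all probe sets, and 16 standard subunits and 2 paralogs had an unadjusted p under 0.05, as did 12.3% of all probe sets. The correlation between the arrays labelled lead and control over 75 lines had a median of 0.159 for the standard subunits, 0.125 for the paralogs and 0.0565 for all probe sets. ND-15, an accessory subunit of complex I, had the smallest p with an r of 0.320 (limma adjusted p 0.253), followed by ND-19 with 0.252 and ATPsynE, a membrane subunit of complex V, with 0.255 (limma adjusted p 0.304 for both). For the mean of the 51 the r over lines was 0.180 (rho 0.137).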

How the data were processed

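RNA of whole males was measured on 150 arrays. The authors deposited a single table of values read here as log2 signal, from their range of 1.93 to 14.04. Summarisation and normalization methods were not given in the sources used here, nor was the log base. Array medians lay between 5.29 and 5.55, arrays correlated with the rest at a median of 0.982 and at 0.954 in the lowest case, and 0 pairs of arrays were identical, so values were used as deposited. Of 18952 probe sets, 183 controls were left out and 18769 were tested without a filter. Only the 13646 with 1 symbol were named. All 69 members matched a RefSeq gene table used for names alone. For arrays, their number limits the precision.

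Tests used limma 3.58.1 in R 4.3.3 over all probe sets with Benjamini-Hochberg adjustment at 0.05, after a test on simulated data. The MtnB class was fitted without a block. Labelled diet had line as a block, because the labels name the same inbred line on both foods, although the pairs were weakly alike (median r over lines 0.0565 over all probe sets). Co-variation was Pearson r, with Spearman rho and r without the 2 arrays farthest from the median on the x axis. Named genes were the paralogs and the subunits they are named after, complex II, up to 6 members per direction by size of the MtnB difference, the 3 of smallest p for diet and line, those of highest and lowest r, and up to 4 per direction in the other lists. ND-B22, ATPsynO, ND-MLRQ, ND-B8, UQCR-Q and other genes beyond this rule were chosen after their values were seen. The lists measured 22 of 26 muscle genes, 29 of 38 testis, 17 of 19 accessory gland, 22 of 28 gut, 16 of 20 eggshell, 9 of 14 citric acid cycle, 10 of 11 carrier, 12 of 21 assembly, 11 of 13 other duplicate and 40 ribosomal protein genes. Members and lists were chosen with earlier results of these data known. No sequences or coordinates are given, and genes of the mitochondrial genome were not analysed here.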

Additional observations from a re-analysis of the deposited data

How the results depend on the processing

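The count of 34 standard subunits lower above 10 in MtnB, and the 8 paralogs, stayed within 1.5 times under median centring (29 and 7), quantile normalization, a filter on signal, label as a covariate, the testis mean as a covariate and splits at 9 or 11. The standard subunits fell to 13 without the 8 lines of lowest array correlation, 15 in lines numbered 1 to 100, 2 in lines above 200, 0 in arrays labelled control alone and 2 with the muscle covariate, and to 0 for a slope within either class. The paralogs numbered 13 with array weights, 3 in lines 1 to 100, 0 in lines above 200, 0 in arrays labelled lead alone, 3 with the actin covariate and 0 for either slope. With line as a replicate block, the pairing given by the labels, the counts were 5 and 0. Among the 16 named genes, that block left 13 classed as weaker, 3 as the same and 0 as reversed. Smaller subsets and the block leave fewer degrees of freedom, and other causes were not tested. For the subsets of lines the share of all probe sets called is not given here, so a general loss of calls cannot be told apart. The median of the 51 was -0.24 in lines above 200, -0.25 in arrays labelled lead, -0.0563 in arrays labelled control, -0.23 with the actin covariate and 0.00637 with the muscle covariate. With the muscle covariate COX7AL2 was at 0.11, SdhB at 0.00808 and SdhC at 0.0297, and SdhB was at 0.00607 in arrays labelled control. Of the 6 members with more than 1 probe set, 5 were called by the probe set of highest mean and 0 by the second, and the second of COX7C had an r of -0.243 with the standard subunits.

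For the labelled diet every alternative called 0 members, with and without the block. The median of the 51 was -0.0780 in lines 1 to 100 and 0.0409 in lines above 200, where ND-MNLL was at 0.0242 and ND-B12 at 0.0329. The line effect called 3 standard subunits with array weights. Median r over arrays was 0.828 to 0.878 for the standard subunits and 0.739 to 0.765 for the paralogs under every alternative except the regression on muscle, testis and actin measures, where it was 0.606 and 0.210, and 0.074 between the sets. Between the sets the other alternatives gave -0.296 (arrays above 10 in MtnB) to -0.073 (median centring). Signal close to background, as of UQCR-11 and ND-B12, limits what a low r shows.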
